A study of Mus musculus with 8 samples.

Results

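Expression of the Hox genes was described by cluster and by position within the cluster in 8 whole mouse embryos collected at embryonic day 8.5 (E8.5). The members were all non-control array probes whose RefSeq accession belonged to 1 of 38 listed Hox genes, which gave 41 of the 55681 distinct probes on the array. The a and b clusters were represented by 10 genes each, and the c and d clusters by 9 genes each. All 8 embryos were heterozygous for l7Rn5-1989SB, a hypomorphic allele of *Eed*, which encodes a core subunit of the histone methyltransferase complex PRC2, and all had wild-type mothers on the C57bl6/129 background. Homozygous males (*Eed* hypo/hypo, called HOM fathers) sired 4 of the embryos and heterozygous males (*Eed* hypo/wt, called HET fathers) the other 4, and each group held 2 females and 2 males. The comparison asked whether embryos of the same genotype differed in expression according to the *Eed* genotype of the father. Sires are not named in the labels. Since the study used fewer males per genotype than embryos, siblings by the father are among the embryos and p-values measure the spread between embryos only. The paper states that HOM and HET fathers were brothers in littermate pairs, and the labels do not tie embryos to these pairs. In each father group 2 embryos share the leading number of their sample identifiers. The arrays of each father group lay on a slide of their own, so that slide and father cannot be told apart in any father difference given here.

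Hox genes encode homeodomain transcription factors that give cells along the head to tail axis their positional identity. In the mouse they lie in clusters in which genes at the 3′ end are activated earlier and expressed further anteriorly than genes at the 5′ end, and the paralogue number rises from the 3′ end to the 5′ end. PRC2 places the repressive mark H3K27me3 over Hox genes that are not active in a given cell, and *Eed* mutants are known for shifts in vertebral identity.

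RNA from each embryo was measured on 1 single-colour Agilent array. Signals were expressed as log2 of the processed intensity minus the 75th percentile of the array, so that a normalised signal of 0 is that percentile. Between 51.9% and 60.8% of spots were well above background on each array, and the number of arrays limits the precision. Of the 38 Hox genes, 32 passed the filter on dim probes (well above background on at least 4 of 8 arrays), as did 29720 of all probes. Since each gene was read by its own probe, levels of different genes were not set against each other. In RNA of whole embryos, fewer cells expressing a gene and less RNA per cell cannot be told apart. Markers of the embryo's parts were present, with 7 of 8 tailbud and presomitic, 7 of 8 anterior neural and 8 of 8 yolk sac endoderm markers passing the filter.

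Detection followed position in the cluster. All 7 genes of paralogues 1 to 3 were well above background on all 8 arrays, as were 14 of the 15 genes of paralogues 4 to 8 and 7 of the 16 genes of paralogues 9 to 13. The exception among paralogues 4 to 8 was *Hoxa6*, which was detected on 7 arrays. In the b cluster every gene from *Hoxb1*, a specifier of hindbrain segment identity, to *Hoxb9* was detected on all 8 arrays, whereas *Hoxb13*, the gene at the 5′ end, was detected on none.

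In the c cluster detection ended step by step towards the 5′ end. *Hoxc4*, *Hoxc5*, *Hoxc6*, *Hoxc8* and *Hoxc9* were detected on all 8 arrays, *Hoxc10* on 7, *Hoxc11* on 4, and *Hoxc12* and *Hoxc13* on none. The 4 arrays with *Hoxc11* above background were those of all 4 embryos of HET fathers.

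The d cluster was interrupted. *Hoxd1*, *Hoxd3*, *Hoxd4*, *Hoxd8* and *Hoxd9* were detected on all 8 arrays, *Hoxd10* and *Hoxd11* on 2 arrays each, and *Hoxd12* on none, yet *Hoxd13*, a regulator of digit formation at the very 5′ end, was detected on all 8. In the a cluster *Hoxa10* and *Hoxa11* were detected on all 8 arrays, and *Hoxa13*, which is needed for the umbilical arteries and the digits, was detected on 7 by the brighter of its probes and on none by the other. By these probes detection at the 5′ end differed between the clusters, with *Hoxa13* and *Hoxd13* above background on most or all arrays and *Hoxb13* and *Hoxc13* on none. *Hoxb13*, *Hoxc13* and *Hoxd13* were each read by a single probe and the *Hoxa13* probes differed, so that probe and cluster cannot be told apart here.

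**Figure D1:**
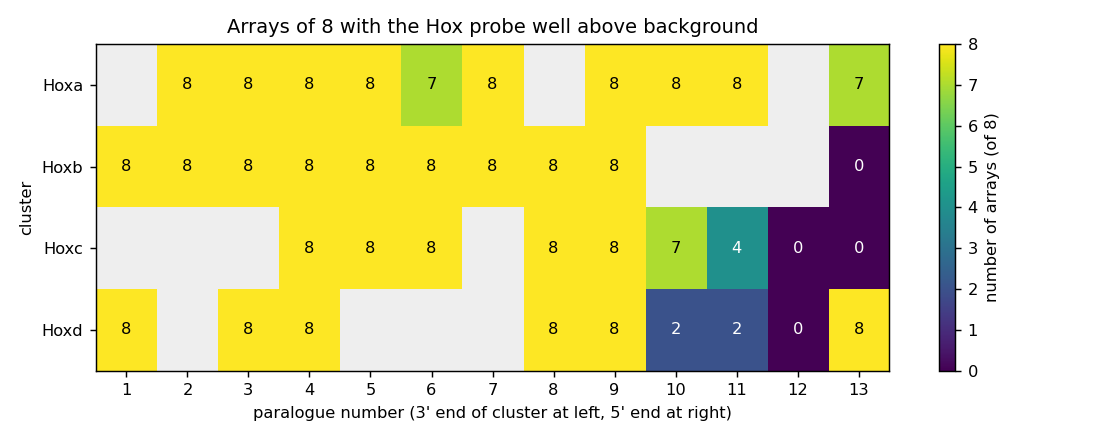
Number of arrays, of 8, on which the probe of each Hox gene was well above background, with clusters in rows and paralogue number in columns, the 3′ end at left. Grey places hold no gene of the list. Paralogues 1 to 5 are at 8 in every cluster, whereas the 5′ ends of the b and c clusters are at 0 and *Hoxd13* is at 8.

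The upstream sequences of 6 members are shown as a description of these genes. The 2 genes called by father, *Hoxc4* and *Hoxc10*, are not among the 6. *Hoxb1* and *Hoxb8* are shown as the 3′ end of the b cluster and as the gene with the largest father difference, and *Hoxa11*, *Hoxa13*, *Hoxd10* and *Hoxd13* as 5′ genes that were low together in 1 embryo. Each run is the 250 bases before the transcription start, 5′ to 3′ on the strand of the gene, from RefSeq on build GRCm38.p6. Capitals mark TTTAT, the core of the binding site of the CDX factors, and TGATNNAT, a site bound by HOX proteins together with PBX, each searched on both strands. The lines give *Hoxb1* (chr11:96365508-96365757, plus strand), *Hoxb8* (chr11:96281655-96281904, plus strand), *Hoxa11* (chr6:52245811-52246060, minus strand), *Hoxa13* (chr6:52260881-52261130, minus strand), *Hoxd10* (chr2:74691641-74691890, plus strand) and *Hoxd13* (chr2:74667975-74668224, plus strand).
Hoxb1: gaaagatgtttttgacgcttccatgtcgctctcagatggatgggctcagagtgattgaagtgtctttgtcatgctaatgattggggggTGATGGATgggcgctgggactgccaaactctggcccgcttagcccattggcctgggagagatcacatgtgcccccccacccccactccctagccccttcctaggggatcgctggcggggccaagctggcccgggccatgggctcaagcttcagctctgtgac
Hoxb8: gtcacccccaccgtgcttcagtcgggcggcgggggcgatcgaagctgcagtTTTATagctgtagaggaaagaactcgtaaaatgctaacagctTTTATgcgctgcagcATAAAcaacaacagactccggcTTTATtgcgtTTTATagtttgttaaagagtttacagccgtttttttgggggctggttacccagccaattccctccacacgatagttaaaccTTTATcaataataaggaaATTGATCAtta
Hoxa11: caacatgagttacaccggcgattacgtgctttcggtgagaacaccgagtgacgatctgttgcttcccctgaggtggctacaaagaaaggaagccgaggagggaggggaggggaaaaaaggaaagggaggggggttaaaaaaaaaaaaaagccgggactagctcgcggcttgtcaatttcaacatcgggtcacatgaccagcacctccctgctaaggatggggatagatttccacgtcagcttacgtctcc
Hoxa13: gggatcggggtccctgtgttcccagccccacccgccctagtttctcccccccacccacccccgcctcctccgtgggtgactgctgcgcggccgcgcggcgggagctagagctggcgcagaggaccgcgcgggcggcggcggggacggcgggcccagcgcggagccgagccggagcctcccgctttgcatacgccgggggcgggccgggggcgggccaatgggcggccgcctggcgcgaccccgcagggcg
Hoxd10: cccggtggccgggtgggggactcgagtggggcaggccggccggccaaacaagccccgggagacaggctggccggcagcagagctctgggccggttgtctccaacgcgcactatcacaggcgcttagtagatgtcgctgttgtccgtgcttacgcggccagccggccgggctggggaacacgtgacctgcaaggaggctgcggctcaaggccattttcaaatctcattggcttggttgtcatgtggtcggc
Hoxd13: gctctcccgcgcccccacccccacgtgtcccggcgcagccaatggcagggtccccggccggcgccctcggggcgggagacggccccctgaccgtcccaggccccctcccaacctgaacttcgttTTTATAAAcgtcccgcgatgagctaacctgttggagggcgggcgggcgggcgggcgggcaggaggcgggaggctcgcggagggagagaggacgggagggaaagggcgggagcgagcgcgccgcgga

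*Hoxb8* held 6 matches to TTTAT, a number reached by 0.393% of all 32851 promoter windows of this length, and 1 match to TGATNNAT. *Hoxb1* held 1 match to TGATNNAT and none to TTTAT. *Hoxd13* held 2 matches to TTTAT that overlap each other, on opposite strands. *Hoxa11*, *Hoxa13* and *Hoxd10* held neither set of letters in these windows. Windows were found for 22 of the 38 Hox genes, 24 windows in all. At least 1 match to TTTAT was present in 9 of the 24 (37.5%), compared with 37.3% of all windows, and at least 1 match to TGATNNAT in 4 of the 24 (16.7%), compared with 7.68% of all windows. The number of CG dinucleotides, the site of DNA methylation in promoters, had a median of 12.5 over the Hox windows and of 6 over all windows. Among the windows shown it was 7 in *Hoxb1*, 12 in *Hoxb8*, 13 in *Hoxa11*, 20 in *Hoxd10*, 31 in *Hoxd13* and 35 in *Hoxa13*. These matches describe the sequence only.

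Before the groups were compared, each embryo was set against the others, since the first embryo of HOM fathers (replicate 1, a female) stood apart for the 5′ genes. The 5′ genes described here outside the rule for named genes were chosen after their values were seen. *Hoxa10*, of the paralogue group that suppresses rib formation in the lumbar region, had signals of -4.73, -2.32, -2.53 and -2.57 in embryos of HOM fathers and -2.42, -2.44, -2.76 and -2.51 in embryos of HET fathers. *Hoxa11*, a regulator of kidney and limb formation, had signals of -3.06, 0.00, -0.30 and -0.47 against -0.17, -0.33, -0.58 and -0.55. Both genes were well above background on all 8 arrays. The first embryo of HOM fathers was 4.67-fold below the mean of the other 7 for *Hoxa10* and 6.58-fold below it for *Hoxa11*, whereas the other 7 embryos spanned 0.44 and 0.58 log2 units, respectively.

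The same embryo was lowest for 5′ genes of the c and d clusters. *Hoxc11* signals were -7.02, -4.77, -4.73 and -4.87 in embryos of HOM fathers and -4.63, -4.27, -4.10 and -4.25 in embryos of HET fathers. *Hoxd10*, which patterns lumbar motor neurons, had signals of -7.78, -4.92, -5.00 and -4.75 against -4.58, -4.44, -4.87 and -4.82. On this array both lay below -5.82, the lowest signal well above background there, and near the signals of the undetected *Hoxc12* (-7.88), *Hoxc13* (-7.82) and *Hoxd12* (-7.97), so that the size of the gap for these genes is not measured.

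*Hoxa13* signals were -5.45, -3.60, -3.59 and -3.27 in embryos of HOM fathers and -3.22, -3.89, -4.85 and -4.22 in embryos of HET fathers. *Hoxd13* signals were -4.21, -2.76, -3.08 and -3.29 against -3.33, -3.21, -3.49 and -3.17. *Hoxd9* signals were -2.35, -1.68, -1.70 and -1.89 against -1.74, -1.70, -1.51 and -1.41. For each of these genes the first embryo of HOM fathers was again the lowest of 8, but by less than 1 log2 unit.

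Among the paralogue 9 genes, which pattern the thorax, this embryo was the lowest for *Hoxd9* but not for *Hoxa9*, *Hoxb9* or *Hoxc9*. Over the 10 tested genes of paralogues 9 to 13 the mean deviation from the gene mean was -1.07 in this embryo and between 0.01 and 0.27 in the other 7. Over paralogues 1 to 3 it was -0.07 and over paralogues 4 to 8 it was -0.19. In the a cluster the mean deviation of the 4 genes from *Hoxa9* to *Hoxa13* was -1.50. It was -1.06 for 3 genes of the c cluster, -0.75 for 2 genes of the d cluster and -0.06 for *Hoxb9*, the only tested 5′ gene of the b cluster. The mean of the c cluster and that over all 10 genes include *Hoxc11*, whose gap is not measured. Relative to the mean of the other 7 embryos, this embryo was at -0.34 for *Hoxc9* and -0.80 for *Hoxc10*.

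A signal more than 1 log2 unit below that of every other array was found on this array for 3 of the 10 tested genes of paralogues 9 to 13 (*Hoxa10*, *Hoxa11* and *Hoxc11*), for 0 of the 22 tested genes of paralogues 1 to 8, and for 25 of all 29720 tested probes (0.0842%). *Hoxc11* passed the filter through embryos of HET fathers alone, and its gap is not measured. With normexp background correction the gaps to the lowest other array were -1.32 for *Hoxa10*, -2.09 for *Hoxa11* and -0.37 for *Hoxc11*. *Tbx4*, which encodes a T-box factor of the allantois and hindlimb, was among the 25, with -0.68 in this embryo and between 2.12 and 2.42 in the others. *Hoxa11os*, the antisense transcript of *Hoxa11*, was also among them, with -2.68 in this embryo and at least -0.68 in the others. In a list of allantois markers added after these values were seen (*Tbx4*, *Vcam1*, *Hand1* and *Bmp4*), all 4 were above background on all 8 arrays, and the mean signal was 1.27 in this embryo, 2.28 to 2.48 in the other embryos of HOM fathers and 2.46 to 2.66 in embryos of HET fathers. *Tbx4* was known to be low in this embryo when the list was made, so that a low mean was set in advance. *Vcam1* was -0.95 in this embryo and -0.22 to 0.67 in the others, while *Hand1* (2.94, others 3.03 to 3.42) and *Bmp4* (3.77, others 3.95 to 4.33) were closer. The trophoblast and decidua list was at -0.82 in this embryo, within the -1.66 to 1.17 of the other 7. This range is wide because single members vary widely, such as *Prl8a2*, at 0.29 in this embryo and -3.99 to 4.45 in the others. *Plac1* of the same list was 0.67 in this embryo and 1.65 to 2.04 in the others. The remaining tested members lay within the range of the other embryos. The part of allantois tissue in the low 5′ Hox signals was not tested. This array had the highest share of spots above background of the 8 (60.8%). Its lowest signal well above background was also the lowest of the 8, at -5.82 compared with -5.58 to -4.63 on the others. The part of the array in the low 5′ Hox signals was not tested.

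**Figure D2:**
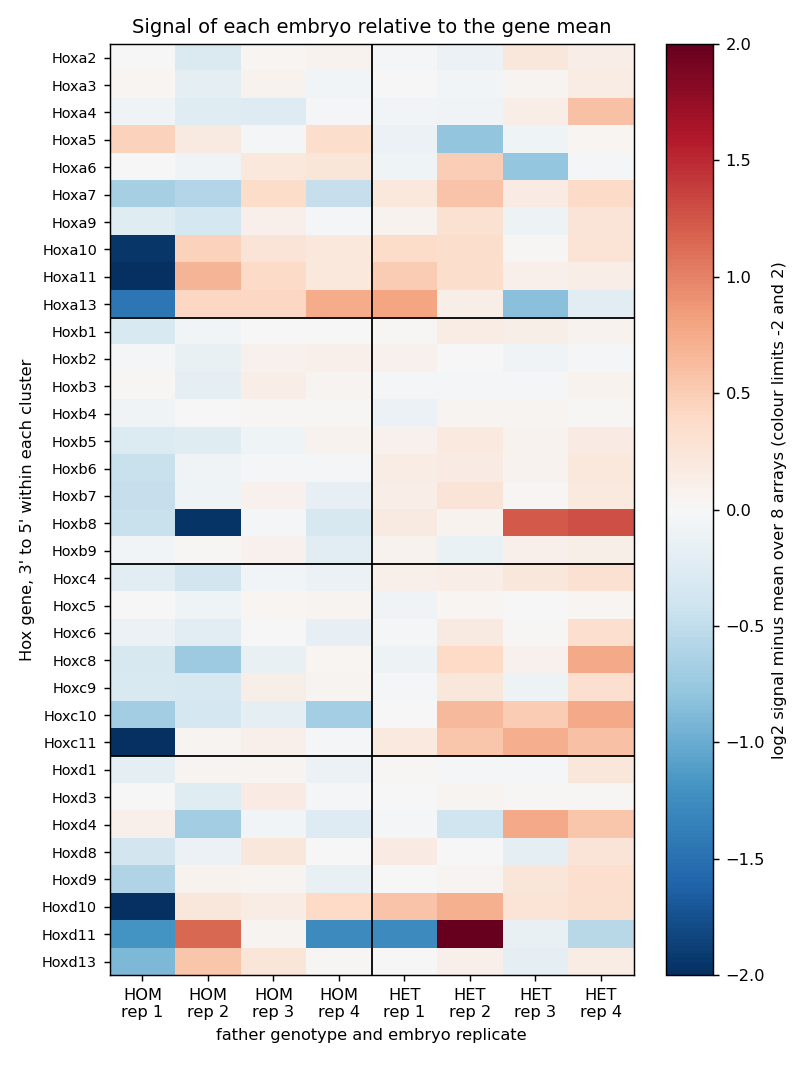
Signal of each embryo minus the gene mean over 8 arrays (log2), for the 34 Hox genes above background on at least 1 array, ordered 3′ to 5′ within each cluster, with HOM father embryos at left and HET father embryos at right. Colours saturate at -2 and 2. The dark blue places in the first column are *Hoxa10*, *Hoxa11*, *Hoxc11* and *Hoxd10*, and the isolated dark blue place in the second column is *Hoxb8*.

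Other genes were low in the second embryo of HOM fathers. It was the lowest of 8 for 13 of the 32 tested genes, compared with 14 for the first embryo. Its mean deviation was -0.15 over paralogues 1 to 3, -0.35 over paralogues 4 to 8 and 0.12 over paralogues 9 to 13. The values for paralogues 1 to 3 and 4 to 8 were below those of the first embryo (-0.07 and -0.19). *Hoxb8*, which acts in the trunk neural tube and in blood progenitors, had signals of 1.61, 0.10, 2.01 and 1.74 in embryos of HOM fathers and 2.23, 2.12, 3.28 and 3.34 in embryos of HET fathers. The second embryo was thus more than 1 log2 unit below every other, as were 0.263% of all tested probes on its array, and replicates 3 and 4 of HET fathers were more than 1 log2 unit above the other 6. The neighbours of *Hoxb8* did not share this spread: *Hoxb7* in the same embryo was 0.44, within the range of the others, and *Hoxb9* was 2.00. *Hoxd4*, in another cluster, was also lowest in this embryo, at 1.53. Its highest signals were in replicates 3 and 4 of HET fathers, at 2.99 and 2.79.

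Spread between embryos of the same father group rose towards the 5′ end. The median SD within father groups was 0.11 for paralogues 1 to 3, 0.22 for paralogues 4 to 8 and 0.38 for paralogues 9 to 13, compared with 0.13 over all tested probes. An SD above 0.40, the 90th percentile of all tested probes, was found for 7 of the 32 genes (*Hoxa10*, *Hoxa11*, *Hoxa13*, *Hoxb8*, *Hoxc11*, *Hoxd4* and *Hoxd13*). Without the first embryo of HOM fathers these medians were 0.11, 0.18 and 0.21, and 3 genes (*Hoxa13*, *Hoxb8* and *Hoxd4*) remained above the 90th percentile. The classes also differed in signal level. Mean signals were -0.72 to 2.10 for paralogues 1 to 3 and -4.83 to 1.98 for the tested paralogues 9 to 13. *Hoxb9*, the brightest of the latter, had an SD of 0.12. The part of dim signal in the spread was not tested.

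By father, 2 of the 32 tested Hox genes were lower in embryos of HOM fathers at a limma adjusted p below 0.05 (8.69% of all tested probes were lower) and 0 were higher (12.3% of all tested probes were higher). No Hox gene passed the limits of the study's methods, an adjusted p below 0.01 with a change of at least 2-fold, which 1.27% of all tested probes passed. At an unadjusted limma p below 0.05, 9 Hox genes were lower (17.4% of all tested probes) and 1 was higher (also 17.4% of all tested probes). The difference was below 0 for 27 of the 32 genes (54.2% of all tested probes), with a median of -0.24 compared with -0.02 over all tested probes. The groups did not overlap for 6 genes that were lower (13% of all tested probes) and for 0 that were higher (14.1%). *Hoxc11* passed the filter through the embryos of HET fathers alone and therefore had to differ. Without it the difference was below 0 for 26 of 31 genes with a median of -0.22, and the groups did not overlap for 5. The share of Hox genes called lower was near the background, whereas the share below 0 was above it. *Hoxb4* and *Hoxc5*, at -0.01 and 0.00, are counted as below 0. A share above the background was not particular to Hox genes. Differences were below 0 for 6 of 7 cofactors, 11 of 14 regulators, 7 of 9 flanking genes and 6 of 7 tailbud markers. They were so for 6 of 7 anterior neural, 7 of 8 yolk sac endoderm, 5 of 6 erythroid and 4 of 4 allantois markers. The trophoblast and decidua list, with 2 of 6, was the exception.

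*Hoxc10*, a lumbar patterning gene, fell by 0.95 on the log2 scale (95% interval -1.39 to -0.51, limma adjusted p = 0.0116). Its signals were -4.70, -4.36, -4.18 and -4.68 in embryos of HOM fathers (SD 0.25) and -4.01, -3.36, -3.49 and -3.25 in embryos of HET fathers (SD 0.34). All 4 embryos of HOM fathers were below all 4 embryos of HET fathers, and the gene was well above background in 3 of the former and all 4 of the latter. *Hoxc10* passed the test in each of the 20 settings of the processing in which it was tested, with limma adjusted p between 0.00405 and 0.0376 and a difference between -1.14 and -0.57, the smallest with normexp background correction.

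*Hoxc4*, which patterns the neck and upper trunk and lies at the other end of the same cluster, fell by 0.39 on the log2 scale (95% interval -0.57 to -0.20, limma adjusted p = 0.0138). Its signals were 1.55, 1.41, 1.72 and 1.66 in embryos of HOM fathers (SD 0.13) and 1.88, 1.92, 2.01 and 2.09 in embryos of HET fathers (SD 0.09). The groups did not overlap, and the gene passed in 20 of 21 settings, the exception being the fit without a filter on dim probes (limma adjusted p from 0.00393 to 0.0566 over settings).

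The other 5 tested genes of the c cluster lay between these in position, or at the 5′ end, and none was called. *Hoxc6* had signals of 2.35, 2.24, 2.48 and 2.31 in embryos of HOM fathers and 2.44, 2.65, 2.49 and 2.81 in embryos of HET fathers, a difference of -0.25 (limma adjusted p = 0.0974). *Hoxc8*, a thoracic patterning gene, had signals of -1.84, -2.24, -1.67 and -1.48 against -1.62, -1.13, -1.43 and -0.76, a difference of -0.57 (limma adjusted p = 0.107). The groups overlapped for both. *Hoxc11*, with values as above, was not well above background in any embryo of a HOM father, so that its signal in embryos of HET fathers was higher by a fold that is only bounded, at least 1.66-fold with all arrays, at least 1.39-fold without the first embryo of HOM fathers and at least 1.38-fold with normexp background correction (limma adjusted p = 0.189, from 0.0185 to 0.37 over settings). *Hoxc9* differed by -0.22 and *Hoxc5* by 0.00.

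In the b cluster 0 of 9 tested genes passed the limma test, 4 were lower at an unadjusted p below 0.05 (17.4% of all tested probes), and 3 were lower with groups that did not overlap (13%). The genes from *Hoxb5* to *Hoxb8* had the larger differences. *Hoxb5* had signals of -0.61, -0.59, -0.42 and -0.27 in embryos of HOM fathers and -0.26, -0.14, -0.27 and -0.17 in embryos of HET fathers, a difference of -0.26 (limma adjusted p = 0.0647). *Hoxb6* had signals of 1.42, 1.79, 1.82 and 1.82 against 2.01, 2.02, 1.94 and 2.08, a difference of -0.30 (limma adjusted p = 0.068), and its groups did not overlap. *Hoxb7* had signals of 0.06, 0.44, 0.60 and 0.36 against 0.66, 0.77, 0.55 and 0.72, a difference of -0.31 (limma adjusted p = 0.1).

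*Hoxb5*, *Hoxb6* and *Hoxb7* each had their lowest signal in the first embryo of HOM fathers, and without it *Hoxb6* and *Hoxb7* both differed by -0.20 and *Hoxb5* by -0.22. *Hoxb8* had the largest difference of the 32 genes, -1.38 (95% interval -2.48 to -0.27, limma adjusted p = 0.0798), with groups that did not overlap. Without the second embryo of HOM fathers it differed by -0.96.

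The 3′ part of the b cluster differed less. *Hoxb1* had signals of -0.42, -0.17, -0.13 and -0.12 in embryos of HOM fathers and -0.10, 0.02, -0.01 and -0.05 in embryos of HET fathers, a difference of -0.18 (limma adjusted p = 0.147) with groups that did not overlap. *Hoxb2* and *Hoxb4* differed by 0.00 and -0.01. *Hoxb3* was read by 2 probes that did not give the same result. The brighter, which stood for the gene, had signals of -0.30, -0.52, -0.20 and -0.27 against -0.35, -0.35, -0.36 and -0.25, a difference of 0.00 (limma adjusted p = 0.98). The other had signals of -0.33, -0.29, -0.09 and -0.14 against -0.47, -0.49, -0.62 and -0.60, a difference of 0.33 that passed the test (limma adjusted p = 0.0159), so that the direction for *Hoxb3* depends on the probe. At the 5′ end *Hoxb9* had signals of 1.92, 2.00, 2.06 and 1.75 against 2.05, 1.85, 2.08 and 2.10, overlapping groups with a difference of -0.09 (limma adjusted p = 0.505).

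In the a cluster 0 of 10 tested genes passed the limma test, 1 was lower and 1 higher at an unadjusted p below 0.05 (17.4% of all tested probes in each direction), and the groups overlapped for all 10 (13% of all tested probes were lower and 14.1% higher without overlap). *Hoxa5*, which acts in lung and neck patterning, had signals of -1.79, -2.07, -2.29 and -1.90 in embryos of HOM fathers and -2.36, -3.03, -2.33 and -2.20 in embryos of HET fathers, a difference of 0.46 (limma adjusted p = 0.132). *Hoxa7*, a thoracic patterning gene, had signals of 1.87, 1.94, 2.90 and 2.07 against 2.74, 3.10, 2.70 and 2.92, a difference of -0.67 (limma adjusted p = 0.0754). The third embryo of HOM fathers lay among the embryos of HET fathers for *Hoxa7*, and without it the difference was -0.90 and passed the test (limma adjusted p = 0.00366, range over all settings 0.00366 to 0.182). *Hoxa9* had signals of -2.22, -2.33, -1.89 and -2.02 against -1.92, -1.68, -2.09 and -1.72, a difference of -0.27 (limma adjusted p = 0.177), and its other tested probe differed by -0.24.

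At the 3′ end *Hoxa2*, which sets the identity of the second branchial arch, had signals of -0.16, -0.45, -0.12 and -0.08 against -0.20, -0.27, 0.07 and -0.02, overlapping groups with a difference of -0.10 (limma adjusted p = 0.559). At the 5′ end the difference depended on 1 embryo. With all arrays *Hoxa10*, *Hoxa11* and *Hoxa13* differed by -0.51, -0.55 and 0.07, and without the first embryo of HOM fathers by 0.06, 0.15 and 0.56. None of these values passed the test.

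In the d cluster 0 of 6 tested genes passed the limma test and 0 were at an unadjusted p below 0.05, while all 6 differences were below 0 with all arrays. *Hoxd1*, at the 3′ end, had signals of 0.08, 0.33, 0.33 and 0.17 in embryos of HOM fathers and 0.31, 0.26, 0.26 and 0.51 in embryos of HET fathers, a difference of -0.11 (limma adjusted p = 0.389). *Hoxd13*, at the 5′ end, differed by -0.03 (limma adjusted p = 0.952) with all arrays and by 0.26 without the first embryo of HOM fathers. The groups overlapped for both. *Hoxd4*, a regulator of neck vertebrae, differed by -0.45 with signals from 1.53 to 2.33 in embryos of HOM fathers and from 1.84 to 2.99 in embryos of HET fathers. *Hoxd10* was not tested. It was not well above background in any embryo of a HOM father and was so in 2 of 4 embryos of HET fathers. The groups overlapped, and since the mean of HET fathers includes signals not above background, no fold is given. *Hoxd11* was above background in 1 embryo of each group, at -4.24 and -2.13.

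By position, the median difference was -0.08 over 7 genes of paralogues 1 to 3, -0.30 over 15 genes of paralogues 4 to 8 and -0.29 over 10 genes of paralogues 9 to 13. Differences were below 0 for 5, 13 and 9 of these genes. Without the first embryo of HOM fathers, an alternative chosen after the data were seen, the medians were -0.06, -0.22 and -0.12, and differences were below 0 for 6, 11 and 6 genes. The median over all 32 genes was then -0.11 with 23 below 0, and the same 2 genes, *Hoxc4* and *Hoxc10*, passed the test. The medians of all 3 classes were below 0 with and without this embryo, and the median of paralogues 9 to 13 depended on it most. With *Hoxc11* also left out, this median was -0.27 over 9 genes with all arrays and -0.08 without the first embryo of HOM fathers.

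**Figure D3:**
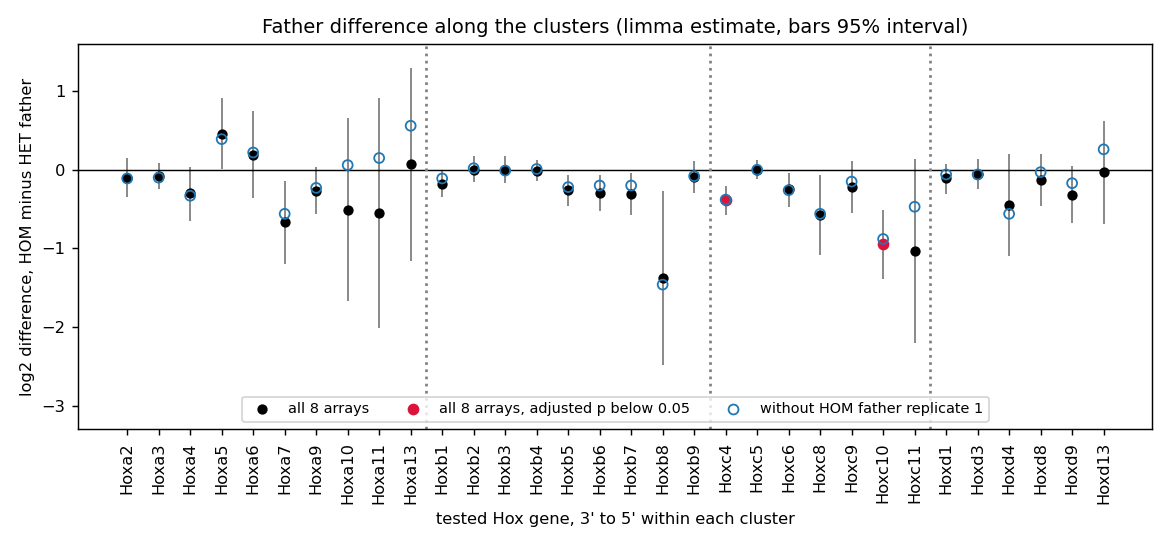
Log2 difference between embryos of HOM and HET fathers for the 32 tested Hox genes, ordered 3′ to 5′ within each cluster, with 95% intervals from limma (n = 4 embryos per group). Red points are *Hoxc4* and *Hoxc10*, at adjusted p below 0.05, and open circles are the estimates without the first embryo of HOM fathers, which lie at 0.06 for *Hoxa10*, 0.15 for *Hoxa11* and 0.26 for *Hoxd13*, where the estimates with all arrays are below 0. *Hoxb3*, *Hoxb4* and *Hoxc5* also change side, within 0.02 of 0.

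The counts by father depended on how the arrays were scaled. With each array scaled to its median, the median of all tested probes moved to -0.21, 34.8% of all tested probes were called lower, and 18 Hox genes were. With normexp background correction 8 Hox genes were lower (11.5% of all tested probes), and with sex as a covariate 7 were (7.64%).

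**Figure D4:**
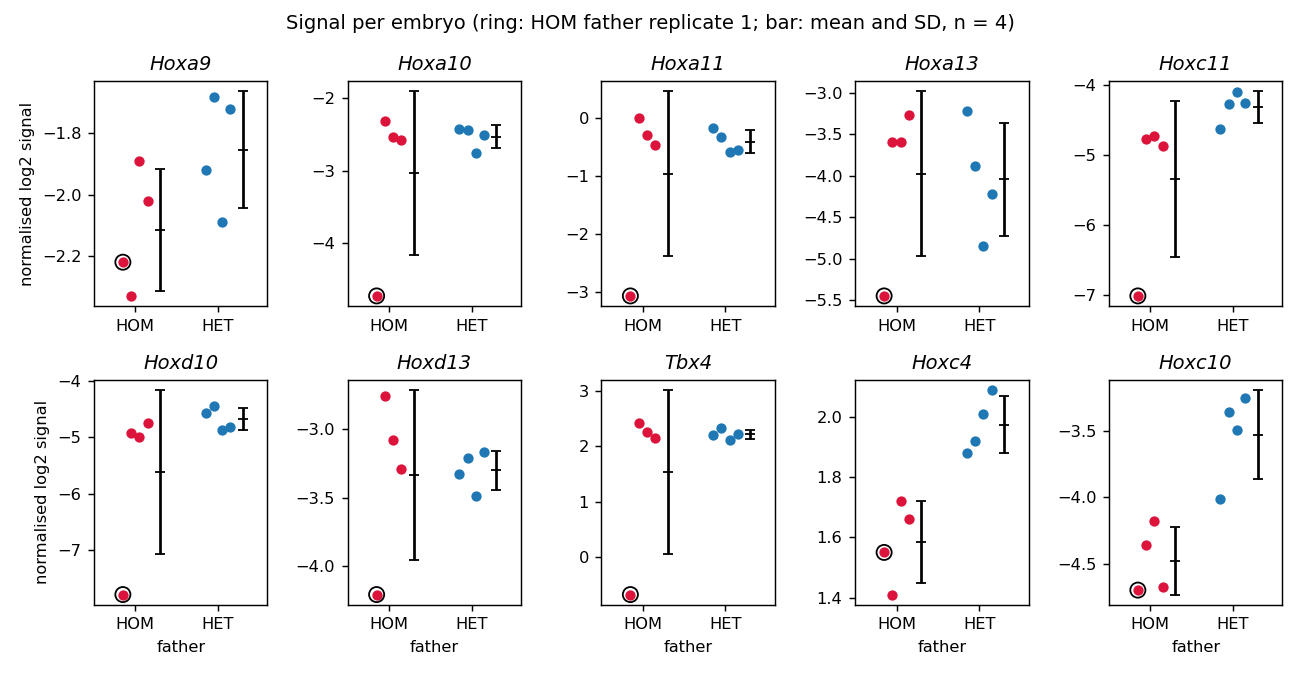
Normalised log2 signal of each embryo for 9 Hox genes and *Tbx4*, with HOM father embryos in red and HET father embryos in blue, in order of replicate. Bars give the mean and SD (n = 4), and rings mark the first embryo of HOM fathers, which is lowest for all the genes shown except *Hoxa9* and *Hoxc4*.

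Sex is balanced over fathers and slides, but both males of HOM fathers share the leading number of their sample identifiers and the females have others, so that within this group sex and that number cannot be told apart. By sex, 0 of the 32 tested Hox genes passed a limma adjusted p below 0.05 (0.121% of all tested probes passed), and 7 were at an unadjusted p below 0.05 (5.22% of all tested probes). Signals were higher in males for 29 of the 32 genes, compared with 46.7% of all tested probes, with a median male minus female difference of 0.17, compared with -0.01 over all tested probes. *Hoxc9* had the smallest p, with 0.56, 0.54, 0.84 and 0.76 in females and 0.98, 0.92, 1.09 and 1.19 in males, a difference of 0.37 (95% interval 0.25 to 0.49, limma adjusted p = 0.103) in groups that did not overlap. *Hoxa9* differed by 0.31 (limma adjusted p = 0.482) and *Hoxc8* by 0.52 (limma adjusted p = 0.69), and their values are those given above. With the identifier number as a random block, an alternative chosen after the data were seen (consensus correlation 0.15), 0 genes passed, 6 were at an unadjusted p below 0.05 (4.8% of all tested probes), 29 were higher in males (46.1%) and the median difference was 0.16.

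For *Hoxa9* the 4 females were between -2.33 and -1.92 and the 4 males between -2.02 and -1.68, so that the sexes overlapped. For *Hoxc8* the females were between -2.24 and -1.43 and the males between -1.67 and -0.76. Without the first embryo of HOM fathers, 26 of 32 genes were higher in males (44.2% of all tested probes), the median was 0.10, and *Hoxc9* differed by 0.37, which did not pass the test. Over paralogues 9 to 13 the median sex difference was 0.34 with all arrays and 0.02 without this embryo, with 9 and 5 of 10 genes higher in males. The father effect did not differ between the sexes at an adjusted limma p below 0.05 for any of the 32 genes (0.0639% of all tested probes), nor at an unadjusted p below 0.05 (4.52%), with 2 embryos in each combination.

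The partners and regulators of Hox proteins were described from fixed lists. HOX proteins bind DNA together with PBX, MEIS and PKNOX cofactors, of which 7 of 8 genes were tested, 3 were lower in embryos of HOM fathers (8.69% of all tested probes) and 0 higher (12.3%). *Pknox2* fell by 0.41 (limma adjusted p = 0.00621), with signals between 1.55 and 1.75 in embryos of HOM fathers and between 1.98 and 2.20 in embryos of HET fathers. *Pbx2* fell by 0.25 (limma adjusted p = 0.039) and *Meis3* by 0.28 (limma adjusted p = 0.0446). For all 3 genes the father groups did not overlap by the brightest probe (13% of all tested probes were lower without overlap). The other tested probes of *Meis3* differed by -0.11 and -0.18 with overlapping groups and did not pass the test (limma adjusted p = 0.349 and 0.181). Without the first embryo of HOM fathers neither *Pbx2* nor *Meis3* passed the test (limma adjusted p = 0.0947 and 0.0809, from 0.00609 to 0.144 and from 0.00578 to 0.148 over settings).

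Among regulators of Hox transcription, which include the CDX factors, retinoic acid enzymes and PRC1 members, 14 of 15 genes were tested and 0 passed the limma test in either direction (4 were lower at an unadjusted p below 0.05, as were 17.4% of all tested probes), with a median of -0.12. The smallest p belonged to *Cyp26a1*, which degrades retinoic acid (difference -0.21, limma adjusted p = 0.059), and *Aldh1a2*, which makes it (difference -0.21, limma adjusted p = 0.0775). The caudal genes *Cdx1*, *Cdx2* and *Cdx4* differed by -0.28, -0.21 and -0.18, none past the test. Among genes that flank the clusters 9 of 11 were tested and 1 was lower (8.69% of all tested probes), *Hibadh* beside the a cluster (difference -0.24, limma adjusted p = 0.0168). *Hibadh* passed in 17 of 21 settings (limma adjusted p from 0.00591 to 0.188), and not with normexp, without a filter, with the replicate block or without replicate 4 of HOM fathers. *Smug1*, beside the c cluster, differed by -0.14 (limma adjusted p = 0.107). *Evx1*, next to *Hoxa13*, was 1.85 in the first embryo of HOM fathers and 2.02 to 2.39 in the others, and *Evx2*, next to *Hoxd13*, was detected on no array.

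Markers of cell types moved with the father groups as follows. In the tailbud and presomitic list, where Hox genes are activated, 3 of 7 tested markers were lower in embryos of HOM fathers (*Tbx6*, *Msgn1* and *Hes7*; 8.69% of all tested probes) and 0 higher (12.3%), and the mean signal was -0.11 to 0.01 compared with 0.08 to 0.21. The dimmer tested probe of *Tbx6* differed by -0.17 with overlapping groups and did not pass the test (limma adjusted p = 0.12). The untested marker, *Wnt3a*, was above background in 2 embryos of HOM fathers and in no embryo of a HET father. Its signals were higher in the former without overlap, but the remaining signals were not above background, so that the size of this difference is not measured. The yolk sac endoderm list had 1 of 8 lower (*Apoa1*; 8.69% of all tested probes) with means of 5.58 to 5.88 and 5.85 to 5.91. In the primitive erythroid list, as reported here, 0 of 6 passed the limma test and 3 were lower at an unadjusted p below 0.05 (17.4% of all tested probes), with means of 4.76 to 5.31 and 5.31 to 5.52. The allantois list had 1 of 4 lower (*Bmp4*; 8.69% of all tested probes). In the anterior neural list 0 of 7 were called, with means of 0.03 to 0.42 and 0.10 to 0.52. In the trophoblast and decidua list 0 of 6 were called, with means of -0.82 to 1.17 and -1.66 to 0.09. Differences were above 0 for 4 of the 6 and below 0 for 2. The largest were 2.97 for *Prl8a2* and 1.88 for the brighter probe of *Prl3d1* (limma adjusted p = 0.215 and 0.208). Both were above background on all 8 arrays and varied widely between embryos, whereas *Tpbpa* was above background on no array. The part of these cell types in the Hox differences was not tested.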

How the data were processed

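RNA of 8 single E8.5 embryos (4 per father group) was measured on 1-colour arrays. Per the labels, 0.2 µg of total RNA per embryo was amplified and labelled with Cy3. The authors processed the scans with Agilent Feature Extraction 11.0.1.1 (from the submitters' processing notes), and the deposited files hold linear intensity values per spot, background-subtracted but not normalised between arrays. The deposited flags (well above background, outlier) are other values of 0 or 1. The deposited value table of the series held the same intensities within 0.497%. Spots with outlier flags were left out, log2 intensities were centred on the 75th percentile of each array, and spots of 1 probe were averaged. Probes were kept if 4 or more of the 8 arrays had them above background and not below the 20th percentile of the array. They were tested with limma 3.58.1 in R 4.3.3 (lmFit and eBayes, two-sided), by father without covariates, by sex with father as a covariate, and for their interaction, with Benjamini-Hochberg adjustment over all 29720 tested probes. A gene is given by its tested probe with the highest mean. "At least" folds were taken against the lowest signal well above background of each array, or the signal of the probe where that was higher. Of 55681 probes, 27235 were named through their RefSeq accessions, and files and annotation differ in build, so that no probe coordinates are given. Promoters were read with Python 3.11.15.

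Values per embryo are printed for the 12 genes with the smallest adjusted p by father, the tested gene nearest each cluster end, the 3 genes with the smallest p by sex and genes with probes of opposite sign; lists give their 2 smallest p and all calls. *Hoxa10*, *Hoxa11*, *Hoxd4*, *Hoxd9*, *Hoxd10* and *Hoxd11* were added after their values were seen. The members and lists were chosen with earlier results of these data known. One Hox gene, 1 cofactor and 1 erythroid marker are not reported here, and the counts and means of their lists leave them out. The fits were tested on simulated data. Alternatives were quantile and median scaling, normexp with an offset of 50 (on median spot signals, since mean signals were not in the files), no filter, a filter on all 8 arrays, trended robust variance, the value table, means over probes, sex, replicate number, slide position and the identifier number as terms, and leaving out each embryo. Replicate numbers did not pair the embryos, so that the main fits have no block.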

Additional observations from a re-analysis of the deposited data

Results flagged for a closer look

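In 8 of 68 sets of 4 embryos (34 Hox genes in 2 father groups), 1 embryo lay far from the other 3 by Dixon's criterion, for which chance gives about 1 set in 20, or 3.4 sets. In 7 of the 8 it was the first embryo of HOM fathers, below the others: *Hoxa10* at -4.73 (others -2.57 to -2.32), *Hoxa11* at -3.06 (-0.47 to 0.00), *Hoxa13* at -5.45 (-3.60 to -3.27), *Hoxc11* at -7.02 (-4.87 to -4.73), *Hoxd10* at -7.78 (-5.00 to -4.75), *Hoxb1* at -0.42 (-0.17 to -0.12) and *Hoxb6* at 1.42 (1.79 to 1.82). 5 of these 7 genes are of paralogues 9 to 13. *Hoxc11* and *Hoxd10* were not above background in any embryo of a HOM father, so that their gaps are not measured. Signals of 1 array share their RNA and hybridisation, so these genes are not independent of each other. In the remaining set, the fourth embryo of HET fathers was above the others for *Hoxb3*, at -0.25 (others -0.36 to -0.35).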

How the results depend on the processing

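Of the Hox genes lower by father (2 with the reported settings), median scaling gave 18, normexp 8, sex as a covariate 7, and both no filter and a filter on all 8 arrays 1. Leaving out single embryos gave 2 to 3. Past an adjusted p of 0.01 and 2-fold (0 reported), quantile normalisation, median scaling and the fit without the first embryo of HET fathers each gave 1, which was *Hoxc10* in all 3, and leaving out single embryos gave 0 to 1. For partner genes lower by father (4 reported), median scaling gave 16, quantile normalisation and sex as a covariate 2 each, no filter and the replicate block 1 each, and leaving out single embryos 1 to 5; normexp gave 1 higher in place of 0. Without replicate 1, 3 or 4 of HOM fathers there were 2, 2 and 1 partner genes lower, and without replicate 3 or 4 of HET fathers 2 each. By sex (0 reported), trended robust variance gave 1, *Hoxc9*. The median Hox difference by father was between -0.28 and -0.11 when single embryos were left out, lowest without the third embryo of HET fathers and highest without the first of HOM fathers. No called value changed sign. Replicate numbers did not pair the embryos (correlations of deviations 0.19, -0.09, -0.13 and 0.15); with the number as a block, *Hoxb8* also passed the test, giving 3 Hox genes lower. Normexp reduced the gap of the first embryo of HOM fathers to the lowest other for *Hoxc11* from -2.15 to -0.37, and for *Hoxa11* from -2.48 to -2.09. Dim signal limits *Hoxc11*, which is a bound in embryos of HOM fathers, and *Hoxd10*, for which no fold is given.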
